A study of Homo sapiens with 8 samples.

Results

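T-box transcription factors share a DNA-binding domain, the T-box, and 8 of their genes are described here in SH-SY5Y cells, a human neuroblastoma (NB) line: TBX1, TBX2, TBX3, TBX5, TBX6, TBX15, TBX18 and TBX20. They were chosen by gene symbol, with their values in these libraries already known from earlier results, so the values of the 8 genes are given as a description with no test. The deposited table lists 47591 genes, among them 17 T-box genes, these 8 and 9 others. Of the 8 genes, 5 averaged 10 or more normalized counts across the 8 libraries and entered the fit across all genes, and TBX1, TBX5 and TBX15 did not. TBX18 passed this filter only through the line in which it was high.

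Polyadenylated RNA of 3 SH-SY5Y lines was sequenced in 8 libraries. The 3 G2 libraries came from cells in which CRISPR/Cas9 was directed by a guide to PRPF40B, the gene of a splicing factor, and the 3 scramble (SCR) libraries from cells that received the same machinery with a control guide. Both edited lines were kept in puromycin, and the 2 WT libraries came from unmodified cells. Edited cells were grown as individual colonies by limiting dilution after drug selection. The replicates of a line are libraries of that line and not independent clones, so the effect of the guide and a difference between clones cannot be told apart, and p-values measure only the spread between such libraries. G2/SCR, G2/WT and SCR/WT denote the comparisons. The first 2 of them share the G2 libraries, and each line serves in 2 comparisons.

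T-box proteins bind short DNA elements related to the sequence recognized by Brachyury, the founding member of the family, and act as activators or repressors with partners such as HAND, GATA, NKX2-5 and the TLE corepressors. They set cell identity in mesoderm, heart, limbs and parts of the neural crest, the embryonic tissue from which NB arises. TBX2 and TBX3 are close relatives that mainly repress transcription, including that of cell-cycle inhibitors, and TBX2 belongs to the group of factors that maintain the adrenergic state of NB cells. TBX18 marks the epicardium, mural cells and other mesenchyme.

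The transcripts of the 8 genes are distinct enough for reads to be assigned. No stretch of 75 bases, the length of a read, was shared between any pair of them in the GENCODE 44 transcripts, and the longest shared stretch of a pair ran from 13 to 24 bases. The 24 bases shared by TBX2 and TBX3, the pair whose levels differed in opposite directions between the lines, are shown because they are the place where reads of these genes would most easily be confused. They lie in coding sequence, in exon 1 of 7 of TBX2 (chr17:61400474-61400497, plus strand, hg38) and in exon 1 of 8 of TBX3 (chr12:114682886-114682909, minus strand). The capitals mark the shared bases.
TBX2 and TBX3, shared stretch: GAGGTGGAGGACGACCCCAAGGTG

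The 250 bases upstream of the TBX18 start are shown because this gene went from the detection floor in both controls to a clear level in G2. They lie at chr6:84764599-84764848 on the minus strand (RefSeq, GRCh38.p14), and CpG dinucleotides are in capitals.
TBX18, upstream: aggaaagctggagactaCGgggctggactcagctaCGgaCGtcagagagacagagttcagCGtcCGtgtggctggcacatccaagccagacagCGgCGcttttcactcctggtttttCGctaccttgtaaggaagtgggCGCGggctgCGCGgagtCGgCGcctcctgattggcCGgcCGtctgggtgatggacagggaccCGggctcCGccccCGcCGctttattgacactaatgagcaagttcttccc
This window holds 20 CpG and is 61.6% G or C, and 32.4% of the 35116 promoters in the table hold as many CpG. The windows of TBX20 held 31 CpG, of TBX6 28 and of TBX1 17, and those of TBX5, a gene at 0 in every library, held 20 and 13. Entries were matched for TBX1, TBX5, TBX6, TBX18 and TBX20. The T-box core motif AGGTGTGA, searched on both strands over 300 bases around each start, was found in 0.98% of all promoters and in 0 of the 6 promoters of these genes. That says only that these letters are not in those windows.

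PRPF40B, the targeted gene, was lower in the G2 line. It read 840, 841 and 918 normalized counts in the 3 G2 libraries, between 1669 and 1686 in SCR, and 1972 and 1668 in WT. The 3 G2 libraries lay below all 5 control libraries (exact permutation test, two-sided p = 0.018, the smallest p this design allows). Transcripts of the gene were still present in every G2 library. Recovered totals ran from 59804395 to 81080747 counts per library. Over all genes tested, 26.9% were called in G2/SCR, 15.1% higher and 11.8% lower. In G2/WT 29.9% were called, 17.7% higher and 12.2% lower, and in SCR/WT 16.3%, 10.7% higher and 5.63% lower. Calls required a change of 1.5-fold or more together with an unadjusted p no higher than 0.05. Of the 12 adrenergic NB markers, all were above the floor in SCR and WT, and TH alone was at the floor in G2. The floor is at most 9 recovered counts in every library of a line. That this equals about 3 fragments is an assumption that was not checked.

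TBX2 rose and TBX3 fell in the G2 line, TBX18 appeared, and TBX6 and TBX20 were not called. Of the 5 members tested, 3 were called against SCR and the same 3 against WT, with TBX2 and TBX18 higher and TBX3 lower, beside the background shares above, from which nothing is read because the members were chosen with these values known. In SCR/WT, 0 of the 5 were called. The study lists RT-qPCR primers for TBX3 and TBX18. It describes the differing genes that it checked by RT-qPCR in G2 cells as randomly selected, and reports that all of them held. The 5 had a median log2 fold change of 0.16 against SCR and 0.47 against WT, beside -0.01 and 0.00 over all genes tested.

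**Figure D1:**
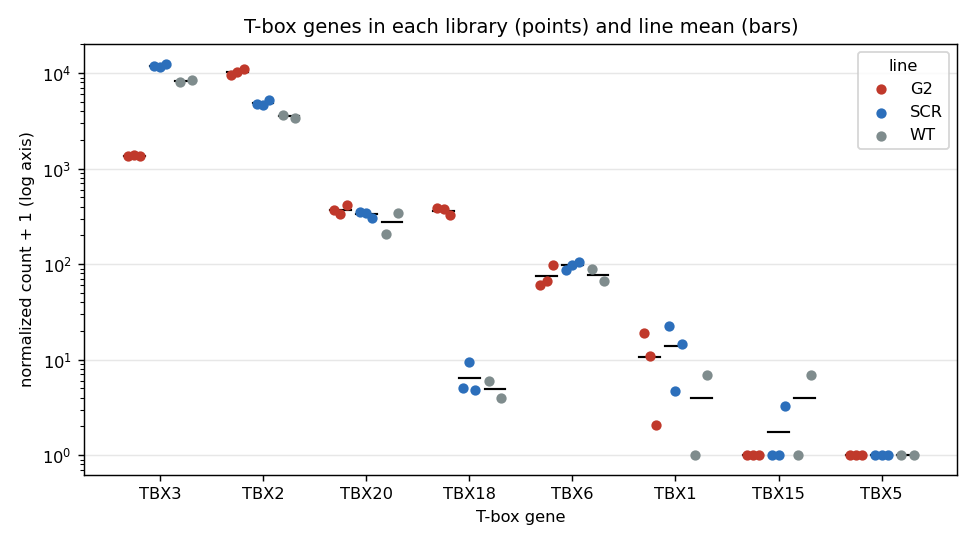
Normalized counts plus 1 of the 8 T-box genes (log axis) in each library of the G2, SCR and WT lines, with points for libraries and black bars for the mean of a line. The TBX3 points of G2 (1347 to 1398 normalized counts) lie far below those of SCR and WT, its TBX2 points lie above them, and TBX18 stands at 329 to 383 in G2 and under 10 in the controls.

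TBX2 (chr17:61399843-61409466) encodes a repressor that opposes cell-cycle exit. It read 9596, 10287 and 11025 normalized counts in G2, 4743, 4627 and 5237 in SCR, and 3624 and 3413 in WT. All G2 libraries lay above all SCR libraries, and these above both WT libraries. The means were 10303 ± 714 (SD, n = 3), 4869 ± 324 (SD, n = 3) and 3519 ± 149 (SD, n = 2). Its log2 fold change was 1.08 (SE 0.07) in G2/SCR, 1.55 (SE 0.08) in G2/WT and 0.47 (SE 0.08) in SCR/WT. The last is under the fold threshold.

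TBX3 (chr12:114670254-114684175), the closest relative of TBX2, is known for its part in limb, breast and conduction system development. In G2 it read 1347, 1398 and 1369 normalized counts. The SCR libraries read 11739, 11655 and 12599, and the WT libraries 8058 and 8465. The groups did not overlap, G2 being the lowest and SCR the highest. The means were 1372 ± 25.5 (SD, n = 3), 11998 ± 523 (SD, n = 3) and 8262 ± 288 (SD, n = 2), so that G2 held 8.75-fold less than SCR and 6.02-fold less than WT. On the log2 scale the differences were -3.13 (SE 0.05), -2.59 (SE 0.06) and, in SCR/WT, 0.54 (SE 0.06).

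TBX18 (chr6:84687363-84764598) read 383, 379 and 329 normalized counts in G2. It read 4.08, 8.45 and 3.78 in SCR and 4.97 and 2.98 in WT, all at the floor. The mean of G2, 364 ± 30.1 (SD, n = 3), was at least 44.6-fold higher than SCR and at least 36.2-fold higher than WT. The level of the gene in the controls, and any difference between them, was not detectable at this depth.

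TBX20 (chr7:35202429-35254147), a heart factor that both activates and represses, read 367, 335 and 415 normalized counts in G2, 354, 345 and 301 in SCR, and 206 and 346 in WT. The 3 lines overlapped, and WT replicate 1 was the lowest library. The log2 fold change was 0.16 (SE 0.17) in G2/SCR, 0.47 (SE 0.19) in G2/WT and 0.32 (SE 0.19) in SCR/WT. Without WT replicate 2 the gene was called higher in G2/WT (0.84) and in SCR/WT (0.69), and 1 WT library then stands for the line.

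TBX6 (chr16:30085761-30091924), which directs the presomitic mesoderm, read 60.2, 65.7 and 96.7 normalized counts in G2, 86.7, 97.6 and 104 in SCR, and 88.2 and 65.5 in WT. The lines overlapped. The log2 fold changes were -0.40 (SE 0.22), -0.07 (SE 0.25) and 0.33 (SE 0.25), and without G2 replicate 3 the first was -0.60 and called. TBX1 (chr22:19756703-19783567), a pharyngeal and heart factor, read 17.9, 9.85 and 1.07 in G2, 21.4, 3.75 and 13.6 in SCR, and 0 and 5.96 in WT. The libraries of the 3 lines overlapped.

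TBX15 (chr1:118883046-118989556), a relative of TBX18 in skeletal and mesenchymal development, was at the floor in all 3 lines, with 2.27 normalized counts in SCR replicate 3, 5.96 in WT replicate 2 and 0 elsewhere. TBX5 (chr12:114353911-114408442), the heart and forelimb factor that neighbours TBX3, was at 0 in every library. Neither gene was detectable at this depth.

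The scaling of the libraries moved the count of members called mainly in SCR/WT. The normalized values summed to 77225106 and 71294311 in the WT libraries and to between 61135884 and 61342140 in SCR. With every library brought to the same total, the median log2 fold change of all genes moved to 0.28 in SCR/WT, 0.19 in G2/WT and -0.10 in G2/SCR. Then 4 members were called higher in SCR/WT, TBX2 at 0.74, TBX3 at 0.81, TBX6 at 0.61 and TBX20 at 0.59, of which 0.28 is the shift of the median gene. In the same scaling TBX2 had log2 fold changes of 0.99 against SCR and 1.73 against WT, and those of TBX3 were -3.22 and -2.40, and TBX20 was also called in G2/WT, at 0.66. The split of all calls into higher and lower moved with it, from 2031 and 1066 to 3959 and 411 in SCR/WT, and from 3353 and 2304 to 4515 and 1448 in G2/WT.

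Levels of different genes were compared per kb of exon, as normalized counts divided by the exon length in GENCODE 44. The counts rest on the FAST DB gene models, so these levels carry the difference between the annotations. Among the 8 genes the order in the G2 line was TBX2 at 1694 ± 117 normalized counts per kb (SD, n = 3), TBX3 at 230 ± 4.29, TBX20 at 204 ± 21.9, TBX18 at 42.0 ± 3.48 and TBX6 at 23.9 ± 6.34. The libraries of TBX3, from 226 to 235, and of TBX20, from 183 to 227, touched, so this pair of neighbours in the order did not differ beyond their spread. In SCR the order was TBX3 at 2013 ± 87.7, TBX2 at 801 ± 53.3, TBX20 at 182 ± 15.6 and TBX6 at 31.0 ± 2.85 (SD, n = 3). In WT the same order held, with TBX3 at 1386 ± 48.3, TBX2 at 579 ± 24.5, TBX20 at 151 ± 53.9 and TBX6 at 24.8 ± 5.16 (SD, n = 2). TBX1 stayed under 6 normalized counts per kb in every library.

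TBX2 stood first in the family in G2, and TBX3 stood first in SCR and WT. Over 16 T-box genes (MGA, a large protein with a second DNA-binding domain, was left out), TBX2 made up 74.7% ± 1.09 of the summed level per kb in G2, 25.5% ± 0.666 in SCR and 26.2% ± 2.00 in WT (SD, n = 3, 3 and 2). TBX3 made up 10.2% ± 0.568, 64.0% ± 0.377 and 62.6% ± 0.0566. The ratio of TBX2 to TBX3 per kb was 6.98, 7.21 and 7.89 in the G2 libraries, 0.396, 0.389 and 0.407 in SCR, and 0.441 and 0.395 in WT. This ratio is taken within a library, so no scaling of libraries bears on it. SCR and WT overlapped in it.

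**Figure D2:**
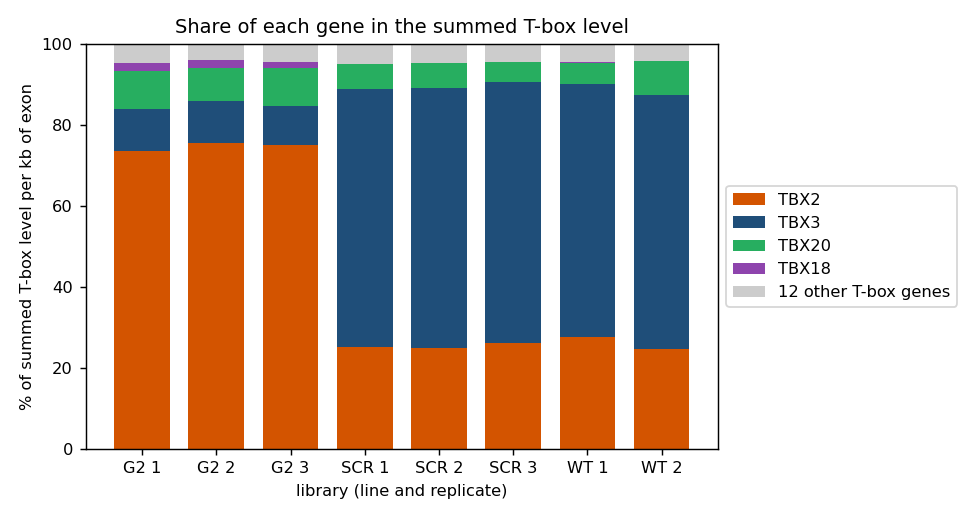
Share of TBX2, TBX3, TBX20, TBX18 and 12 other T-box genes in the summed level per kb of exon (percent, vertical axis) in each of the 8 libraries. TBX2 takes 73.5% to 75.5% in the G2 libraries, and TBX3 takes 62.6% to 64.3% in the SCR and WT libraries.

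The summed level of the 16 genes was 2267 ± 135 normalized counts per kb in G2, 3143 ± 125 in SCR and 2213 ± 75.0 in WT (SD, n = 3, 3 and 2). The G2 sum was thus below that of SCR and overlapped with that of WT, which was 1972 with the same total in every library, where G2 was at 2294. TBX2 and TBX3 together gave 84.0% to 86.0% of it in G2, 88.8% to 90.6% in SCR and 87.4% to 90.2% in WT. TBX18 made up 1.86% ± 0.256 of it in G2.

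Among the 9 other T-box genes, 5 were tested. In G2/SCR, 2 were called lower and 0 higher, in G2/WT 1 higher and 1 lower, and in SCR/WT 1 higher and 0 lower, shares of 40%, 40% and 20% beside the 26.9%, 29.9% and 16.3% of all genes tested. Their median log2 fold changes were -0.16, -0.08 and 0.49. EOMES, a mesendoderm and T cell factor, was called lower in both G2 comparisons (limma with Benjamini-Hochberg adjustment, adjusted p = 0.00023 in G2/SCR and 0.0032 in G2/WT). It read 0 in all 3 G2 libraries, 19.4, 24.4 and 32.5 normalized counts in SCR and 14.9 and 7.94 in WT, so that G2 was at least 2.73-fold lower than SCR and at least 1.22-fold lower than WT. It passed the filter on low values, with a mean of 12.4, mainly through SCR, and its fitted change against a line at 0 depends on the pseudocount. The bound against WT is under the fold threshold, and the WT libraries rest on 12 and 8 recovered counts.

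TBXT, which encodes Brachyury, was called lower in G2/SCR, at 66.1 ± 13.5 normalized counts in G2 against 131 ± 14.0 in SCR (SD, n = 3 each, log2 fold change -0.99, SE 0.20, limma adjusted p = 0.0014). Against WT, at 93.2 ± 13.9 (SD, n = 2), its log2 fold change of -0.50 was not called (limma adjusted p = 0.079), though it was without G2 replicate 3 (-0.62) or WT replicate 2 (-0.65). Without WT replicate 1 it was called higher in SCR/WT (0.64), which raised that count to 2. TBX19, the pituitary factor of the corticotroph lineage, was higher than WT in both edited lines, at 139 ± 32.5 in G2, 153 ± 11.9 in SCR and 78.8 ± 0.851 in WT, with log2 fold changes of 0.79 and 0.94 (limma adjusted p = 0.0074 and 0.0044). TBX21, the T helper cell factor, was not tested and read 0 in all G2 libraries, 15.3, 17.8 and 28.7 normalized counts in SCR, and 0 and 11.9 in WT. MGA read 4099 ± 219, 3952 ± 383 and 3636 ± 754 and was not called in any comparison. TBX4 had log2 fold changes of 0.73, -0.08 and -0.81 at means of 11.5 to 21.3 normalized counts and was not called, except in G2/SCR without G2 replicate 3 (1.19), TBX22 and TBR1 had means under 10 in every line, and TBX10 was at 0 throughout.

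Of the genes of 24 partners that bind or work with T-box proteins, 21 were tested, and 5 were called higher and 7 lower in G2/SCR, 5 higher and 5 lower in G2/WT, and 3 higher and 0 lower in SCR/WT. These are 57.1%, 47.6% and 14.3% of the partners, beside 26.9%, 29.9% and 16.3% of all genes tested. Their median log2 fold changes were -0.06, -0.08 and -0.08. In both G2 comparisons HAND1, HAND2, GATA2, ISL1 and RIPPLY2 were lower, and MEF2C, SMARCD3, WWTR1 and YAP1 were higher.

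ISL1, a homeobox factor of sympathetic neurons and of the heart field, read 2607 ± 31.8 normalized counts in G2, 6847 ± 117 in SCR and 7994 ± 282 in WT, log2 fold changes of -1.39 and -1.62 (limma adjusted p = 6.4e-10 and 5.3e-10). HAND1, a bHLH factor, had log2 fold changes of -1.25 and -1.81 (adjusted p = 1.2e-07 and 1.2e-08, limma). Its relative HAND2, a factor of the adrenergic NB state, fell by 0.64 and 0.59 on the log2 scale, from 52490 ± 1737 in SCR and 50733 ± 2251 in WT to 33678 ± 2130 normalized counts. The call of HAND2 in G2/WT was lost without G2 replicate 1, G2 replicate 2 or WT replicate 1 (log2 fold changes of -0.56, -0.57 and -0.55) and with the same total in every library (-0.41).

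GATA2, a zinc finger factor of the adrenergic state, had log2 fold changes of -0.80 and -1.03 (limma adjusted p = 2e-07 and 6.3e-08). RIPPLY2, a corepressor that converts T-box activators such as TBX6 into repressors, read 349 ± 67.8 normalized counts in G2, 745 ± 6.55 in SCR and 842 ± 52.9 in WT. Its log2 fold changes were -1.11 and -1.28 (limma adjusted p = 1e-05 and 7.9e-06). The 5 TLE corepressors were not called in any of the comparisons. HDAC1 was the remaining partner higher in G2/SCR, and NKX2-5 and SALL4 the remaining ones lower there. NKX2-5 was higher in G2/WT, and NKX2-5, SALL4 and YAP1 were the 3 partners higher in SCR/WT. NKX2-5 was at low levels, 31.1 ± 3.85 normalized counts in G2, 69.9 ± 15.2 in SCR and 2.48 and 14.9 in WT. Its limma adjusted p was 0.07 in G2/SCR, 0.0058 in G2/WT and 0.0007 in SCR/WT. HDAC1, NKX2-5 and SALL4 were named after their values were seen.

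YAP1 and WWTR1, which encode the Hippo pathway coactivators YAP and TAZ that bind TBX5, were higher in G2. YAP1 read 1721 ± 127 normalized counts in G2, 220 ± 26.5 in SCR and 23.6 and 37.7 in the WT libraries. It was also higher in SCR/WT (log2 fold changes of 2.97, 5.80 and 2.83, limma adjusted p = 2.1e-08, 1.8e-10 and 7e-07). WWTR1 lay at the floor in either control and read 48.0, 49.3 and 75.2 in G2, at least 7.06-fold higher than SCR and at least 5.72-fold higher than WT. It counts among the partners called higher, but passed the filter on low values only through G2. SMARCD3, the chromatin remodelling subunit that recruits T-box factors to heart genes, had log2 fold changes of 1.31 and 1.66 (limma adjusted p = 3e-08 and 1.1e-08). MEF2C, a MADS-box factor, had 0.65 and 0.62, just over the threshold, and lost the call in G2/WT without G2 replicate 3 or WT replicate 2 (0.58 each) and in G2/SCR with the same total in every library (0.56).

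**Figure D3:**
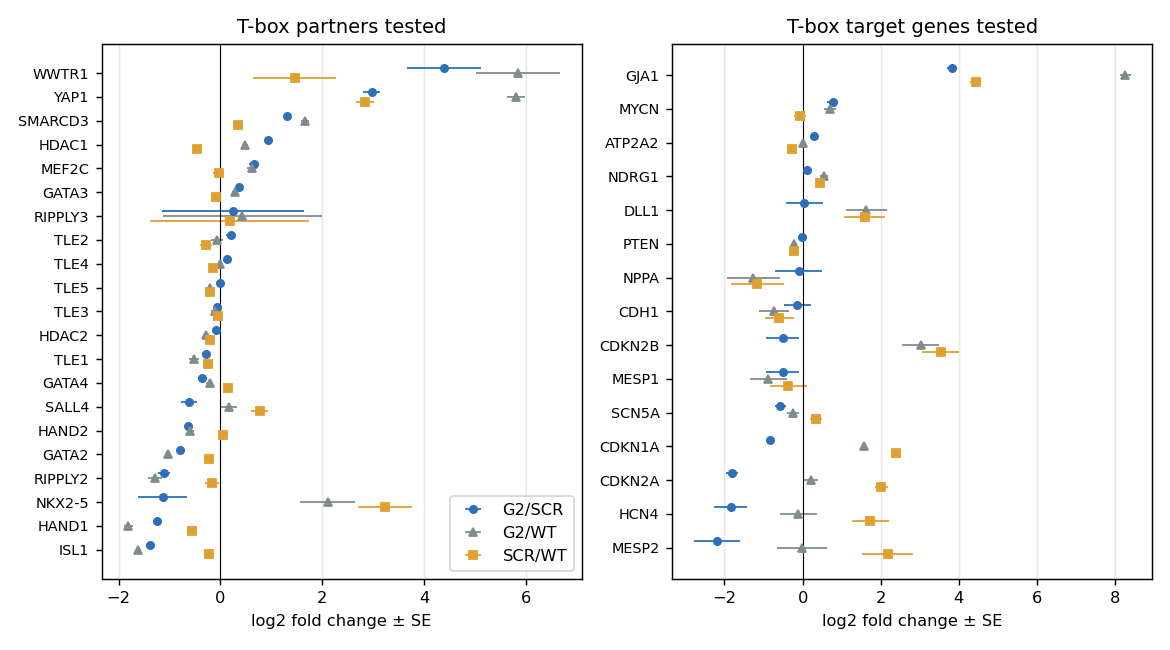
Log2 fold changes (horizontal axis, error bars are the SE) of the 21 tested T-box partners and the 15 tested T-box target genes in G2/SCR, G2/WT and SCR/WT. ISL1 and HAND1 lie at the low end of the partners in both G2 comparisons, and YAP1 and GJA1 lie to the right in all 3 comparisons.

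Of 20 listed target genes, which T-box factors are known to regulate, 15 were tested, and 2 were called higher and 4 lower in G2/SCR, 5 higher and 0 lower in G2/WT, and 7 higher and 0 lower in SCR/WT. These are 40%, 33.3% and 46.7% of those tested, beside 26.9%, 29.9% and 16.3% of all genes. The median log2 fold changes were -0.13, 0.02 and 0.44. Several of the calls rest on genes at or near the floor in a line, named below. Without WT replicate 2 the calls in G2/WT were 5 higher and 3 lower (NPPA, MESP1 and CDH1, named after their values were seen).

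GJA1 and MYCN were called higher in both G2 comparisons. GJA1, the gap junction gene of connexin 43 that TBX2 and TBX3 repress in the heart and skeleton, read 17387, 18527 and 18042 normalized counts in G2, 1285, 1272 and 1243 in SCR, and 45.9 and 72.5 in WT. The lines were far apart, and the log2 fold changes were 3.83 in G2/SCR, 8.26 in G2/WT and 4.43 in SCR/WT (limma adjusted p = 2.6e-10, 1.1e-12 and 3.2e-09). MYCN, an NB oncogene, read 357 ± 14.4 in G2, 211 ± 28.6 in SCR and 220 ± 24.5 in WT (log2 fold changes 0.77 and 0.70, limma adjusted p = 0.00036 and 0.0014).

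The cell-cycle inhibitor genes repressed by TBX2 and TBX3 followed another order of the lines. CDKN1A, which encodes p21, read 12718 ± 1160 normalized counts in G2, 22633 ± 448 in SCR and 4300 ± 397 in WT. It was thus lower than SCR and higher than WT (log2 fold changes -0.84 and 1.56, limma adjusted p = 1.2e-06 and 1.3e-08), and higher in SCR/WT (2.40, adjusted p = 3.5e-09, limma). CDKN2A read 985 ± 116, 3452 ± 434 and 872 ± 295, lower in G2/SCR (-1.81, limma adjusted p = 1.4e-06) and not called in G2/WT (0.21, limma adjusted p = 0.34). HCN4 and MESP2 were the other genes lower in G2/SCR, both at the floor in G2, and they passed the filter on low values only through SCR. CDKN2B and DLL1 were the other genes higher in G2/WT, both at the floor in WT. All of them were also called higher in SCR/WT, with CDKN2B, DLL1 and MESP2 at the floor in WT and HCN4 near it. These 4, CDKN1A and CDKN2A were named after their values were seen. Of the 14 promoters of target genes with an entry, 1 held the core motif, that of CDKN1A, beside 0.98% of all promoters. The match lay just downstream of the start. Binding of T-box factors there was not tested.

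Most mesenchymal markers tested were called higher, and most adrenergic markers lower, in G2 against both controls. In this line TBX2 and TBX18 were also higher and TBX3 lower. In SCR/WT some markers of both lists were called. TBX2 and TBX3 had log2 fold changes of 0.47 and 0.54 there, under the fold threshold. With the same total in every library both were called higher in SCR/WT, at 0.74 and 0.81. TBX18 was at the floor in SCR and WT, so no difference between these lines was detectable. The 15 mesenchymal markers summed to between 365777 and 370009 normalized counts in the G2 libraries, 138982 to 146011 in SCR and 104990 to 119359 in WT. Single genes carry much of these sums, VIM alone averaging 214430 in G2 and 85197 in SCR. Of 13 mesenchymal markers tested, 10 were called higher in G2/SCR, 11 in G2/WT and 4 in SCR/WT, beside 15.1%, 17.7% and 10.7% of all genes, and 0 were called lower. PRRX1, TWIST2 and FN1 were at the floor in SCR and WT, and TWIST2 and FN1 in G2. PRRX1 counts among those called higher in both G2 comparisons, but passed the filter on low values only through G2. TH, an adrenergic marker called lower in both, passed it only through SCR and WT. The 12 adrenergic markers, of which HAND2 and ISL1 are also in the list of partners, summed to between 294185 and 302498 in G2, 429111 to 435981 in SCR and 374019 to 386982 in WT. STMN2, which was not called in any comparison, alone averaged 165517, 170244 and 116782. Of these 12, 9 were called lower in G2/SCR, 8 in G2/WT and 2 in SCR/WT, beside 11.8%, 12.2% and 5.63% of all genes, with 1 higher in SCR/WT. Fewer cells of a type and less RNA per cell cannot be told apart in bulk RNA, and the part of cell state in the levels of the T-box genes was not tested.

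Pooled over the 8 members, the share of neighbouring genes called was not above that of all genes. The table holds 151 genes within 500 kb of a member (other members aside), of which 87 were tested. In G2/SCR 18.4% of them were called (7 higher, 9 lower), in G2/WT 27.6% (9 higher, 15 lower) and in SCR/WT 9.2% (1 higher, 7 lower), against 26.9%, 29.9% and 16.3% of all genes. Within 1000 kb the shares of 184 tested neighbours were 19.6%, 29.9% and 12.5%. The gene-dense surroundings of TBX6 gave 48 of the 87 and those of TBX1 gave 19. TBX2 had 9 tested neighbours, and TBX3 and TBX18 had 1 each. The pooled share thus says little about the surroundings of TBX2, TBX3 and TBX18.

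**Figure D4:**
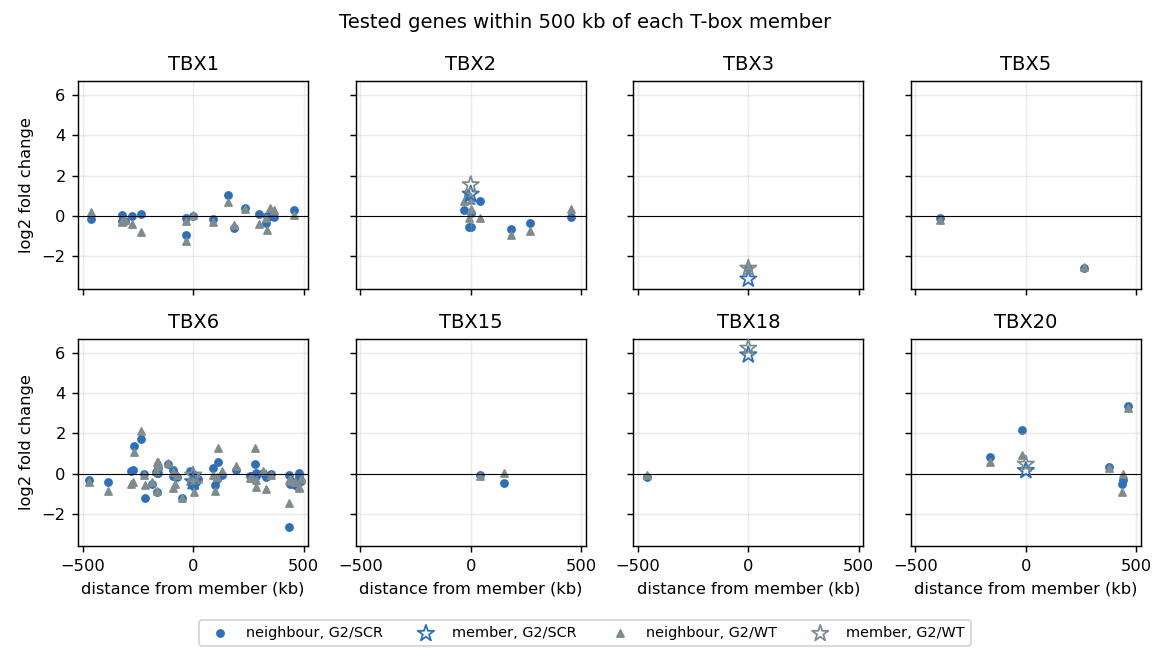
Log2 fold changes of tested genes (points) in both G2 comparisons against their distance from each T-box member in kb, within 500 kb, with stars for the member itself at 0 kb. No tested neighbour comes near the TBX18 star, and the points near -2.5 in the TBX3 and TBX5 panels are the same unnamed gene inside TBX3.

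Around TBX3, a single neighbour was tested, an unnamed gene (GSHG0010580, chr12:114672861-114673329) that lies in an intron of TBX3 in GENCODE 44. It read 45.1 ± 5.69 normalized counts in G2, 270 ± 32.0 in SCR and 260 ± 1.14 in WT (log2 fold changes -2.56 and -2.51, limma adjusted p = 5.5e-08 and 1.9e-07). The strand setting of the counting is not given in the sources used here, so reads of this gene and unspliced reads of TBX3 cannot be told apart. Around TBX18, CEP162 was the one neighbour tested, and it was not called (log2 fold changes -0.14 and -0.07, limma adjusted p = 0.21 and 0.59).

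Around TBX2, its antisense gene TBX2-AS1, which starts 0.237 kb upstream on the other strand, read 253 ± 36.1 normalized counts in G2, 230 ± 30.4 in SCR and 195 ± 27.6 in WT. It was not called (log2 fold changes 0.13 and 0.37, limma adjusted p = 0.49 and 0.083), beside 1.08 and 1.55 for TBX2. NACA2 was lower in both G2 comparisons (-0.64 and -0.93, limma adjusted p = 0.00088 and 0.00011), but not called in G2/SCR without SCR replicate 3 (-0.55). An unnamed gene (GSHG0019502) was called higher, at 38.6 ± 12.1 normalized counts in G2 and with limma adjusted p = 0.075 and 0.062. It lost a call when G2 replicate 2 or 3, SCR replicate 1 or 3, or either WT library was left out, at log2 fold changes from 0.63 to 1.28. The antisense genes of TBX5 and TBX18, TBX5-AS1 and TBX18-AS1, were at 0 in every library.

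Around TBX6, PRRT2 (log2 fold changes 1.38 and 1.07) and the combined entry of MVP and PAGR1 (1.74 and 2.12) were higher in both G2 comparisons, and ASPHD1 (-0.92 and -0.88) and TLCD3B (-1.22 and -1.22) were lower. Their limma adjusted p ran from 3.6e-08 to 2.3e-05. LOC101928595, which lies 4.51 kb from TBX6, was called lower (-0.59 and -0.90) with limma adjusted p = 0.074 and 0.019, and lost a call without G2 replicate 1 or 3, SCR replicate 1 or 2, or WT replicate 1 (-0.46 to -0.64). Around TBX1, GP1BB was lower (-0.95 and -1.22, limma adjusted p = 0.00045 and 0.00015). Around TBX20, DPY19L1 was higher (0.84 and 0.60, limma adjusted p = 5.1e-07 and 2.5e-05). DPY19L2P1, a pseudogene of DPY19L2, was higher too (2.18 and 0.92, limma adjusted p = 0.00025 and 0.067). LOC100506725 averaged 26.0 ± 10.4 normalized counts in G2 and was at the floor in both controls. Its G2 level was at least 3.20-fold above SCR and at least 2.59-fold above WT. It counts among the neighbours called higher, but passed the filter on low values only through G2. In G2/WT, the calls of DPY19L1 (0.51) and LOC100506725 (1.87) were lost without WT replicate 1, and that of DPY19L2P1 when any single G2 library or WT replicate 1 was left out (0.61 to 0.99). DPY19L2P1 may share reads with other DPY19L2 copies and its count is uncertain. TBX15 had no neighbour that was called in both.

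The genes whose profiles were most like that of a member were found among 13065 genes that averaged 100 or more normalized counts, by the root mean square difference of centred log2 values over the 8 libraries, which is a description with no test. For TBX2 they included FURIN, a proprotein convertase (0.07), and PDZK1 (0.08). FURIN read 3082 ± 130 normalized counts in G2, 1421 ± 68.7 in SCR and 1135 ± 59.4 in WT. For TBX3 they were DPP10-AS1 (0.17), DPP10 (0.23), which encodes a potassium channel subunit and overlaps the former so that their reads may not be told apart, and FBP1, a gluconeogenic enzyme (0.25). DPP10 read 219 ± 25.9, 1380 ± 58.8 and 1110 ± 28.1 normalized counts in G2, SCR and WT.

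For TBX18 they were S100A16, a calcium-binding protein (0.32), PTGS1, a prostaglandin synthase (0.41), and HS3ST3A1, a heparan sulfate sulfotransferase (0.53). S100A16 read 16036 ± 375 normalized counts in G2, 377 ± 68.3 in SCR and 260 ± 24.5 in WT, well above the floor where TBX18 was not. For TBX20 they were UBXN7 (0.08), ZC3H6 (0.09) and CHP1P2 (0.10), and these too were lowest in WT replicate 1. UBXN7 read 664 normalized counts there and from 870 to 1105 in the other 7 libraries.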

How the data were processed

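The authors mapped paired reads to hg38 with STAR 2.7.5a, counted them on FAST DB genes with featureCounts (Subread 1.5.0) and normalized with DESeq2. The deposited signal is a normalized count per gene and library, neither logged nor scaled to length. Each library's values were whole multiples of a step (100% within 0.01), which gave recovered counts and totals. The step of WT replicate 2 is too near 1 for a check. Small counts were mostly multiples of 3, for a reason the sources do not give, hence the floor of 9. Intervals and floors cover counting error only.

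The members and all gene lists were chosen with earlier results of these data known. log2(value + 1) was fitted with limma 3.58.1 in R 4.3.3 (lmFit, eBayes with trend) for 18947 genes with a mean of at least 10, with a mean per line. Named were all T-box genes, PRPF40B, partners, targets and neighbours called the same way in both G2 comparisons, antisense genes, and the 3 nearest profiles of members with a mean of at least 100. On simulated data for G2/SCR (18679 genes) the test recovered 89.3% of genes changed by a log2 of 1, 98.6% of those changed by 2, and called 1.38% of unchanged genes. The simulation changed few genes, took its noise from these libraries and drew no difference between clones. The 1.38% is thus no rate of false calls for these lines. edgeR 4.0.16 and DESeq2 1.42.0 were also applied to the recovered counts of the G2 and SCR libraries. A few genes that the naming rule covers are not reported here.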

Additional observations from a re-analysis of the deposited data

How the results depend on the processing

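No called result changed sign. The members were chosen with their values known, so their calls are no measure of stability. With a pseudocount of 10, the fitted log2 fold changes of TBX18 were 4.61 and 4.74. A mean of at least 100 left 3088, 3633 and 1723 genes called in G2/SCR, G2/WT and SCR/WT, from fewer genes tested (13065), with 0 and 1 other T-box genes called in G2/SCR and G2/WT, and 3 target genes each in G2/WT and SCR/WT. With the same total in every library, 4 members and 2 other T-box genes were called in SCR/WT, beside 4370 of all 18947 genes tested. The summed T-box level per kb was then 3386 in SCR and 1972 in WT. In that scaling 47.5% of calls were higher in G2/SCR (56.2% as reported), 75.7% in G2/WT (59.3%) and 90.6% in SCR/WT (65.6%). The other T-box genes called in SCR/WT numbered 2 with a pseudocount of 10, 3 with no filter and 2 with only the libraries of the 2 lines. The cause of these moves was not tested. On recovered counts, chosen after seeing the data, edgeR called 5093 and DESeq2 4973 genes in G2/SCR, and 100% of values came out whole. The replicate numbers did not pair the samples (correlations of deviations from -0.03 to 0.04 for shared numbers), and with the replicate block 5059, 5644 and 3057 genes and 3, 3 and 0 members were called, and 5 target genes higher and 1 lower in G2/WT. With any single G2 or SCR library left out, 4790 to 5014 of the 18947 genes tested were called in G2/SCR. Leaving out 1 library gave 3 to 4 members in either G2 comparison, and 0 to 1 members, 1 to 2 other T-box genes and 7 to 8 target genes in SCR/WT, and 5 to 8 target genes in G2/WT. The single member in SCR/WT, TBX20, and the 8 target genes in G2/WT (5 higher, 3 lower) came without WT replicate 2. Among single genes outside the members, 42 values over all alternatives lost a call, mostly for LOC101928595, GSHG0019502, DPY19L2P1 and HAND2, and 13 gained one. With means under 10 normalized counts over the libraries, TBX1, TBX5 and TBX15 could not be compared.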
